A study of Mus musculus with 24 samples.

Results

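The genes described are 32 listed genes for ionotropic and metabotropic glutamate receptors, for proteins that travel with these receptors, and for 1 postsynaptic scaffold. They were found by gene symbol in a table of log2 expression values from the mouse suprachiasmatic nucleus (SCN), the seat of the main circadian clock in the hypothalamus. A probe set, the group of probes that reports 1 transcript, was found for 31 of the 32 genes, out of 18193 genes with a probe set of their own. Where a gene had several, the one with the highest average across the 24 arrays was used. The platform annotation used here pairs no probe set with Grin1, so this obligatory NMDA receptor subunit was not analysed here. Of the 31 genes, 29 reached a log2 value over 4 on at least 4 arrays and were tested among 13494 such genes. Grin2a exceeded 4 on 0 arrays and Grm2 on 3, so neither was tested.

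The 24 arrays form 6 groups of 4: ventral, central and dorsal SCN, each after a light pulse and after sham handling. All mice were adult C57BL/6 animals, 8 weeks old when obtained, kept in constant dim red light for at least 7 days. The light groups received a 30 min light pulse of the kind that advances the clock, the sham groups none, and all were killed 3.5 h later. The regions were cut from 25 µm cryosections with a laser, RNA was purified with 20 ng of bacterial ribosomal RNA as carrier, and it was amplified and labelled in 2 batches. Batch A holds replicates 1 and 2 of every group, and batch B replicates 3 and 4. Whether arrays share animals, or animals were pooled, is not stated in the labels, so the p-values measure only the spread between these samples.

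Glutamate is the main transmitter of the retinohypothalamic tract, the axons of retinal ganglion cells that carry light information to the SCN, which end most densely in its ventral part. AMPA and kainate receptors are fast cation channels. NMDA receptors are channels that also admit calcium and are needed for light to reset the clock. Metabotropic receptors act through G proteins, and the delta receptors bind secreted cerebellins at synapses. Auxiliary subunits set the trafficking and gating of the channels: the transmembrane AMPA receptor regulatory proteins (Cacng2, Cacng3, Cacng8), the cornichons (Cnih2, Cnih3) and Shisa6 for AMPA receptors, and Neto1 and Neto2 for kainate receptors. Dlg4 encodes a postsynaptic scaffold that anchors such receptors.

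The promoter windows of Neto2, the only member that passed the test for light in a region, of Grik3, which had the largest ventral to dorsal difference of the members, and of Cnih3, a member higher in the central than in the dorsal SCN, are given here as annotated by RefSeq in build GRCm38.p6. Each covers 250 bases before and 50 bases after the annotated start, 5′ to 3′ on the gene's strand. Capitals mark GC boxes (GGGCGG or, on the other strand, CCGCCC), E-boxes (CACGTG, the element bound by the clock factors) and the cAMP-response half-site (TGACG or CGTCA). Neto2 has 2 annotated windows, and the one farthest 5′ is shown.
Neto2, chr8:85700875-85701174, minus strand: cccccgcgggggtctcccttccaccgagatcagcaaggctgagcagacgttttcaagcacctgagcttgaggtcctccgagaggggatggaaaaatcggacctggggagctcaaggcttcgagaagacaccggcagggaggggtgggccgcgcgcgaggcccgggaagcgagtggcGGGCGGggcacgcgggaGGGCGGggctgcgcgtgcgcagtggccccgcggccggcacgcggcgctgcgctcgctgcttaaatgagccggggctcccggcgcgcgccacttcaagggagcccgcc
Grik3, chr4:125490446-125490745, plus strand: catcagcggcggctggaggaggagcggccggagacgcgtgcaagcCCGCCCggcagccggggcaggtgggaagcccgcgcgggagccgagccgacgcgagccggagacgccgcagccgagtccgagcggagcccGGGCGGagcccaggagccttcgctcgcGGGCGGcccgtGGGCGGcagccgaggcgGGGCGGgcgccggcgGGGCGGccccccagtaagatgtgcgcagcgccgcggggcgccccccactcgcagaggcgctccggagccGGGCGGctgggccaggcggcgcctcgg
Cnih3, chr1:181352378-181352677, plus strand: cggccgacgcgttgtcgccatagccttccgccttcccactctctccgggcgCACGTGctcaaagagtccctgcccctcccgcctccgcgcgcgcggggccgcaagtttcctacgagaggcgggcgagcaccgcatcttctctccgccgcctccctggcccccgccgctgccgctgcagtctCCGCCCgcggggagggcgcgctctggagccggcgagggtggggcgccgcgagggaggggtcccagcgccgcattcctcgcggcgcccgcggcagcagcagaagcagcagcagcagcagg
The Neto2 window held 2 GC boxes and the Grik3 window 7. The Cnih3 window held 1 GC box and 1 E-box. No cAMP half-site was found in these 3 windows. Of 32851 windows in the table, 35.7% held a GC box, 7.15% an E-box and 20.8% the half-site. The table has 27 windows for 21 of the members, and 14, 2 and 4 of these windows held the 3 motifs. A match describes these letters and is not a measured binding site.

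Values of the 2 batches are on different scales, so every comparison below was made with the batch as a term, and values of single arrays are to be read within a batch. Batch A had array medians of 3.52 to 3.62 and batch B of 4.81 to 5.07. The Gapdh signal at the 3′ end exceeded that at the 5′ end by 2.02 to 3.28 in batch A and by 0.887 to 1.07 on 11 arrays of batch B. Dorsal light replicate 4 had 5.41 there, and it correlated with the rest of batch B at a median of 0.872, where those arrays had 0.976 to 0.983. Central light replicate 2 had 0.954, where the others of batch A had 0.974 to 0.980. Both stand apart from their batches. The landmark genes went with the labels. Vip, a peptide of the ventral core, was higher in the ventral than in the dorsal SCN by 3.44 and Avp, a peptide of the shell, lower by 1.43, while Nptx1, an activity-regulated gene, was higher after light by 3.33, 3.06 and 2.20 in the ventral, central and dorsal SCN (log2, all with adjusted p under 0.05 in limma).

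Glutamate receptor genes of every class but the delta receptor differed between regions. Of the 29 tested members, 8 differed between the ventral and the dorsal SCN, 2 higher and 6 lower in the ventral, 5 between the ventral and the central SCN, 1 higher and 4 lower, and 10 between the central and the dorsal SCN, 6 higher and 4 lower in the central. A gene was called at an adjusted p under 0.05 in limma with 8 against 8 arrays. The same rule called 4.61%, 5.2% and 7.11% of all tested genes (in the order given; 2.63% higher and 1.98% lower, 4.36% higher and 0.845% lower, and 1.96% higher and 5.14% lower). The 3 comparisons share arrays, so their counts are not independent. The median difference of the 29 members was 0.01, -0.12 and 0.09, beside 0.01, 0.05 and -0.05 for all tested genes. All 23 called differences had the same sign in both batches. The map of differences shows them by class.

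**Figure D1:**
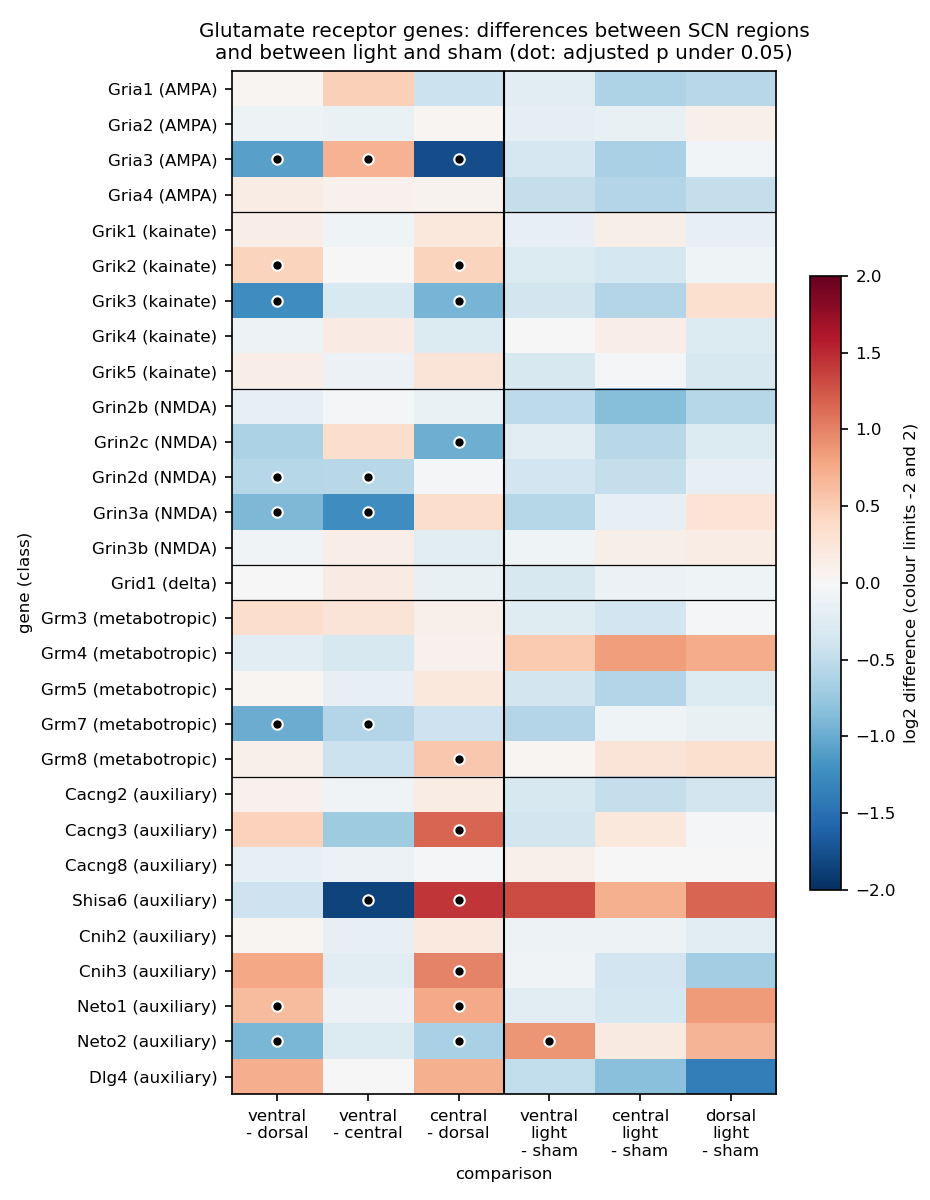
Colour gives the log2 difference of each of the 29 tested members (rows, grouped by class) in 3 comparisons of regions (left, 8 against 8 arrays) and in light minus sham in each region (right, 4 against 4 arrays); dots mark an adjusted p under 0.05 in limma over 13494 genes. There are 23 dots in the region columns and 1, for Neto2 in the ventral SCN, in the light columns.

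Markers of other cell types differed between the cut regions. Oligodendrocyte markers were higher in the ventral than in the dorsal SCN (6 of 7 called, median 1.14) and than in the central SCN (7 of 7, median 2.64), and lower in the central than in the dorsal SCN (6 of 7, median -1.44). Their mean log2 level was 8.33 to 8.93 in the ventral, 5.45 to 6.46 in the central and 7.09 to 7.595 in the dorsal SCN in batch A, and 9.63 to 10.04, 7.23 to 7.74 and 8.71 to 9.02 in batch B. Markers of neighbouring hypothalamic neurons had a mean level of 5.04 to 5.81 in the dorsal SCN against 4.27 to 4.67 in the ventral and 4.09 to 4.39 in the central in batch A, and of 5.24 to 6.17, 4.82 to 5.26 and 4.46 to 4.86 in batch B. Of the 7 that were tested, 2 were called lower and 0 higher in the ventral than in the dorsal SCN (median -0.25). In the central SCN 3 were called lower and 0 higher than in the dorsal (median -0.45). The peptide gene Sst led them, lower by 5.26 in the ventral and by 4.71 in the central than in the dorsal SCN. Of 7 general neuron markers, 2 were called higher in the dorsal than in the ventral and in the central SCN, among them Syt1 (differences of -2.04 and -1.86), and the mean level of the 7 was 8.08 to 8.52 in the dorsal, 7.56 to 8.02 in the ventral and 7.40 to 8.08 in the central SCN in batch A. In batch B it was 9.93 to 10.2, 9.33 to 9.46 and 9.41 to 9.59. Of 7 astrocyte markers, 6 were higher in the ventral than in the central SCN. The part of these differences in the values of the receptor genes was not tested. In such bulk samples, fewer cells of a type and less RNA per cell cannot be told apart.

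Among the 4 AMPA receptor subunits, Gria3 alone was called between regions. Gria3 in the ventral SCN read 6.03 and 5.49 under sham and 5.26 and 5.17 after light in batch A, and 8.19 and 8.32 under sham and 8.19 and 8.07 after light in batch B. Gria3 in the central SCN read 5.20 and 5.28 under sham and 4.79 and 4.13 after light in batch A, and 8.02 and 7.40 under sham and 6.96 and 7.39 after light in batch B. Gria3 in the dorsal SCN read 6.85 and 6.42 under sham and 6.91 and 6.27 after light in batch A, and 9.40 and 9.12 under sham and 9.19 and 9.21 after light in batch B. Within each batch every dorsal array was above every ventral and every central array, while the ventral and central arrays overlapped in batch A and were apart in batch B. Gria3 was 3.42-fold lower in the central than in the dorsal SCN (log2 -1.77 ± 0.134 (SE), adjusted p = 1.19e-08), with -1.76 within batch A and -1.79 within batch B. It was 2.12-fold lower in the ventral than in the dorsal SCN (-1.08 ± 0.134 (SE), adjusted p = 1.28e-05), with -1.13 within batch A and -1.04 within batch B, and 1.61-fold higher in the ventral than in the central SCN (0.69 ± 0.134 (SE), adjusted p = 0.00199). A second Gria3 probe set, over 4 on 10 arrays, gave -0.50 for central minus dorsal, -0.25 for ventral minus dorsal and 0.25 for ventral minus central. With the mean of its probe sets the ventral to central difference was 0.47 with an adjusted p of 0.0527.

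The other AMPA subunits had small regional differences that did not pass. Gria2, whose edited subunit keeps AMPA channels impermeable to calcium, had values between 9.21 and 9.95 on batch A arrays, between 10.98 and 11.52 on batch B arrays, and its regional intervals were -0.32 to 0.13 (ventral minus dorsal), -0.36 to 0.10 (ventral minus central) and -0.20 to 0.26 (central minus dorsal). Gria4 had corresponding intervals of -0.12 to 0.42, -0.19 to 0.35 and -0.20 to 0.34. Gria1 was lowest in the central SCN, at differences of 0.47 ± 0.16 (SE) (ventral minus central, adjusted p = 0.107) and -0.43 ± 0.16 (SE) (central minus dorsal, adjusted p = 0.121).

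Of the 5 kainate receptor subunits, Grik2 and Grik3 were called, in opposite directions. Both encode subunits that form channels on their own, while the products of Grik4 and Grik5 need such a partner. Grik3 in the ventral SCN read 5.14 and 4.67 under sham and 4.89 and 3.78 after light in batch A, and 6.38 and 7.11 under sham and 6.72 and 6.42 after light in batch B. Grik3 in the central SCN read 5.37 and 4.46 under sham and 4.80 and 3.98 after light in batch A, and 7.14 and 7.98 under sham and 6.80 and 7.03 after light in batch B. Grik3 in the dorsal SCN read 6.09 and 5.05 under sham and 5.87 and 4.94 after light in batch A, and 7.64 and 8.09 under sham and 7.93 and 9.42 after light in batch B. The dorsal arrays were the highest on average in both batches, and they were apart from the ventral arrays in batch B but overlapped them in batch A. Grik3 was 2.37-fold lower in the ventral than in the dorsal SCN (-1.24 ± 0.261 (SE), adjusted p = 0.00469), with -0.87 within batch A and -1.62 within batch B. It was 1.91-fold lower in the central than in the dorsal SCN (-0.93 ± 0.261 (SE), adjusted p = 0.0299), with -0.83 within batch A and -1.03 within batch B. The latter call was lost without central light 2 (0.0652), dorsal light 1 (0.0506), central sham 2 (0.0698), dorsal sham 1 (0.0753), central light 3 (0.0567), central sham 3 (0.0681) or dorsal sham 4 (0.0544) (adjusted p in brackets), and with both arrays that stand apart left out the difference was -0.64 (adjusted p = 0.0989). With arrays centred on their medians it was -0.81 (adjusted p = 0.0594). Between sham arrays alone, limma gave -0.89 for ventral minus dorsal (adjusted p = 0.16) and -0.48 for central minus dorsal (adjusted p = 0.469). Without dorsal light replicate 4 the ventral to dorsal difference was -1.04 (adjusted p = 0.00572 in limma). A second Grik3 probe set, over 4 on 9 arrays, gave differences of -0.0033 for ventral minus dorsal and -0.081 for central minus dorsal.

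Grik2 went the other way, with the lowest values in the dorsal SCN. Grik2 in the ventral SCN read 7.46 and 7.22 under sham and 6.93 and 7.09 after light in batch A, and 7.39 and 7.44 under sham and 7.08 and 7.33 after light in batch B. Grik2 in the central SCN read 7.58 and 7.33 under sham and 7.0004 and 6.42 after light in batch A, and 7.41 and 7.35 under sham and 7.44 and 7.42 after light in batch B. Grik2 in the dorsal SCN read 6.64 and 6.62 under sham and 6.84 and 6.76 after light in batch A, and 7.01 and 7.07 under sham and 7.08 and 6.33 after light in batch B. The dorsal arrays lay below all ventral arrays in batch A and below all central arrays in batch B, and overlapped them otherwise. The lowest dorsal value of batch B, 6.33, came from dorsal light replicate 4. Grik2 was higher by 0.45 ± 0.13 (SE) in the ventral and by 0.45 ± 0.13 (SE) in the central than in the dorsal SCN, each 1.37-fold, with adjusted p of 0.0493 and 0.0363. Within batches the values were 0.46 within batch A and 0.44 within batch B, and 0.37 within batch A and 0.53 within batch B. The ventral to dorsal call held in 5 of 24 omissions of single arrays, those of dorsal light 1, dorsal light 3, central light 2, central light 3 and central sham 1, and was lost in the 19 others, with an adjusted p of 0.113 without ventral sham 1 and a difference of 0.36 (adjusted p = 0.0708) without dorsal light 4. It was also lost with each treatment and replicate number as a block (adjusted p = 0.0557). The central to dorsal call was lost without central light 1 (0.0603), central sham 1 (0.0744), central sham 2 (0.0597), dorsal sham 1 (0.0701), dorsal sham 2 (0.0712), central light 3 (0.0878), central light 4 (0.0827), dorsal light 4 (0.0502) or dorsal sham 3 (0.0572). A second Grik2 probe set, over 4 on 13 arrays, gave 0.63 and 0.45 for the same differences.

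No regional difference of Grik1, Grik4 or Grik5 passed. Over all regions, Grik1 values spanned 6.69 to 7.99 in batch A, and 8.398 to 10.5 in batch B. Grik4 ran from 3.43 to 4.69 and from 4.67 to 6.24, and Grik5 from 4.54 to 6.14 and from 5.79 to 7.25. Their largest regional difference was that of Grik4 between the central and the dorsal SCN, -0.27 ± 0.207 (SE), with an interval of -0.70 to 0.16.

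Of the NMDA receptor subunits, Grin3a, Grin2d and Grin2c were called between regions and Grin2b was not. Grin3a encodes a glycine-binding subunit that lowers the calcium permeability of the channel. Grin3a in the ventral SCN read 5.49 and 5.84 under sham and 4.67 and 4.57 after light in batch A, and 7.85 and 7.92 under sham and 7.93 and 7.67 after light in batch B. Grin3a in the central SCN read 7.12 and 6.36 under sham and 6.87 and 6.00 after light in batch A, and 8.83 and 8.97 under sham and 8.98 and 8.80 after light in batch B. Grin3a in the dorsal SCN read 6.14 and 5.72 under sham and 6.89 and 5.80 after light in batch A, and 8.53 and 8.62 under sham and 8.64 and 8.77 after light in batch B. The ventral arrays lay below every central array in both batches and below every dorsal array in batch B. In batch A the ventral and dorsal arrays overlapped. Grin3a was 2.38-fold lower in the ventral than in the central SCN (-1.25 ± 0.173 (SE), adjusted p = 5.36e-05), with -1.45 within batch A and -1.05 within batch B. It was 1.86-fold lower in the ventral than in the dorsal SCN (-0.90 ± 0.173 (SE), adjusted p = 0.00208), with -0.997 within batch A and -0.80 within batch B. Between sham arrays alone the ventral to dorsal difference was -0.48 (adjusted p = 0.238). A second probe set, over 4 on 14 arrays, gave -0.84 and -0.37 for the same differences, and one more, over 4 on 0 arrays, 0.02 and 0.09.

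Grin2d, a subunit of slowly closing NMDA receptors, was lower in the ventral SCN than in both others. Grin2d in the ventral SCN read 4.76 and 4.55 under sham and 3.98 and 3.79 after light in batch A, and 6.82 and 6.59 under sham and 6.96 and 6.46 after light in batch B. Grin2d in the central SCN read 4.81 and 4.88 under sham and 4.15 and 4.62 after light in batch A, and 7.90 and 7.54 under sham and 6.94 and 7.50 after light in batch B. Grin2d in the dorsal SCN read 4.83 and 4.83 under sham and 4.75 and 4.64 after light in batch A, and 7.81 and 7.12 under sham and 6.91 and 7.599 after light in batch B. Ventral arrays overlapped the other regions in both batches, with the lowest values under light in batch A. The difference was -0.57 ± 0.148 (SE) from the dorsal SCN (adjusted p = 0.0242) and -0.55 ± 0.148 (SE) from the central SCN (adjusted p = 0.0277), 1.49-fold and 1.47-fold. The first call was lost without ventral light 2 (0.057), ventral light 4 (0.058), ventral sham 3 (0.057), ventral sham 4 (0.0711) or dorsal sham 3 (0.0684). The second was lost without ventral light 1 (0.0508), ventral light 2 (0.059), central light 2 (0.0541), ventral light 4 (0.0666), central light 4 (0.0735), ventral sham 3 (0.0644), ventral sham 4 (0.076) or central sham 3 (0.0724). A second probe set was over 4 on 0 arrays and gave 0.05 and -0.07, and with the mean of both the differences were -0.26 and -0.31 (adjusted p = 0.299 and 0.186).

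Grin2c, a subunit best known from the cerebellum and from astrocytes, was lower in the central than in the dorsal SCN. Grin2c in the ventral SCN read 4.899 and 4.42 under sham and 5.07 and 3.82 after light in batch A, and 7.003 and 6.40 under sham and 6.38 and 6.64 after light in batch B. Grin2c in the central SCN read 4.75 and 5.20 under sham and 4.10 and 3.73 after light in batch A, and 6.41 and 5.69 under sham and 5.77 and 6.22 after light in batch B. Grin2c in the dorsal SCN read 5.67 and 5.66 under sham and 5.86 and 4.95 after light in batch A, and 7.25 and 6.80 under sham and 6.73 and 6.72 after light in batch B. In batch B every central array lay below every dorsal array, and in batch A they overlapped at 1 value of each. The difference was -0.97 ± 0.204 (SE), 1.96-fold, with an adjusted p of 0.00347 and -1.09 within batch A and -0.85 within batch B. Between sham arrays alone it was -0.83 (adjusted p = 0.0698 in limma). Grin2c in the ventral SCN differed from the dorsal by -0.63 ± 0.204 (SE) (adjusted p = 0.0937). Grin2b, a glutamate-binding subunit abundant in the forebrain, had regional intervals of -0.50 to 0.19 (ventral minus dorsal), -0.38 to 0.31 (ventral minus central) and -0.47 to 0.22 (central minus dorsal). Grin3b lay between 3.42 and 4.99 on all arrays, and Grin2a between 2.38 and 3.31.

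The delta receptor Grid1 did not differ detectably between regions. Grid1 in the ventral SCN read 4.85 and 5.10 under sham and 4.43 and 4.27 after light in batch A, and 7.78 and 7.83 under sham and 7.65 and 7.93 after light in batch B. Grid1 in the central SCN read 4.65 and 4.51 under sham and 4.35 and 4.45 after light in batch A, and 7.52 and 7.84 under sham and 7.68 and 7.54 after light in batch B. Grid1 in the dorsal SCN read 4.49 and 5.01 under sham and 4.70 and 4.61 after light in batch A, and 7.93 and 7.62 under sham and 7.29 and 8.10 after light in batch B. All regions overlapped in both batches, and the ventral light arrays of batch A were below both ventral sham arrays of that batch. The intervals were -0.24 to 0.27 (ventral minus dorsal), -0.09 to 0.42 (ventral minus central) and -0.40 to 0.10 (central minus dorsal).

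Among the metabotropic receptors, Grm7 and Grm8 were called, both presynaptic receptors coupled to inhibitory G proteins. Grm7 in the ventral SCN read 7.63 and 7.79 under sham and 7.54 and 6.68 after light in batch A, and 9.26 and 9.50 under sham and 8.76 and 8.88 after light in batch B. Grm7 in the central SCN read 8.11 and 7.80 under sham and 8.54 and 7.48 after light in batch A, and 9.71 and 9.93 under sham and 9.45 and 9.69 after light in batch B. Grm7 in the dorsal SCN read 8.80 and 8.08 under sham and 8.15 and 8.05 after light in batch A, and 10.43 and 10 under sham and 9.94 and 10.56 after light in batch B. Every ventral array lay below every dorsal array within its batch, while central arrays overlapped the ventral ones in both batches and the dorsal ones in batch A. Grm7 was 2-fold lower in the ventral than in the dorsal SCN (-0.998 ± 0.161 (SE), adjusted p = 0.000322), with -0.86 within batch A and -1.13 within batch B. It was 1.5-fold lower in the ventral than in the central SCN (-0.58 ± 0.161 (SE), adjusted p = 0.0339), with -0.58 within batch A and -0.59 within batch B. That call was lost without ventral light 2 (0.0795), central light 1 (0.0786), ventral sham 1 (0.0638), central sham 1 (0.0634), ventral light 3 (0.073), ventral light 4 (0.0596), central light 4 (0.0574), ventral sham 3 (0.0762), ventral sham 4 (0.0546), central sham 3 (0.0522) or central sham 4 (0.0765). A second Grm7 probe set, over 4 on 23 arrays, gave -0.55 and -0.28 for the same differences.

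Grm8 exceeded 4 only on the 12 arrays of batch B and rests on them. Grm8 in the ventral SCN read 3.27 and 3.10 under sham and 3.21 and 3.54 after light in batch A, and 4.32 and 4.47 under sham and 4.22 and 4.33 after light in batch B. Grm8 in the central SCN read 3.37 and 3.26 under sham and 3.54 and 3.23 after light in batch A, and 4.44 and 5.34 under sham and 5.62 and 5.06 after light in batch B. Grm8 in the dorsal SCN read 3.08 and 2.92 under sham and 3.07 and 3.22 after light in batch A, and 4.01 and 4.16 under sham and 4.66 and 4.48 after light in batch B. In batch A all values were between 2.92 and 3.54, and the central arrays were narrowly above the dorsal ones. In batch B central sham replicate 4 and both central light arrays were the highest of all. Grm8 was 1.45-fold higher in the central than in the dorsal SCN (0.53 ± 0.147 (SE), adjusted p = 0.027), with 0.28 within batch A and 0.79 within batch B. The call was lost without dorsal light 1 (0.0526), central light 3 (0.0684), central sham 4 (0.0736) or dorsal sham 3 (0.0693). Grm3 spanned 4.99 to 6.25 in batch A, and 6.54 to 7.52 in batch B, and its largest regional difference was 0.35 ± 0.137 (SE) (ventral minus dorsal, adjusted p = 0.192). Grm4 and Grm5, the latter a receptor that raises calcium through phospholipase C, had regional differences between -0.32 and 0.21, none called. A second Grm5 probe set, over 4 on 24 arrays, gave 0.24 (ventral minus dorsal), -0.40 (ventral minus central) and 0.64 (central minus dorsal). Grm2 lay between 2.88 and 4.25.

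The auxiliary subunits held 8 of the 23 calls between regions. Of 9, 5 were called in at least 1 comparison of regions: Shisa6, Cacng3, Cnih3, Neto1 and Neto2 between the central and the dorsal SCN, Neto1 and Neto2 also between the ventral and the dorsal SCN, and Shisa6 also between the ventral and the central SCN. Shisa6 encodes an AMPA receptor partner that slows desensitization. Shisa6 in the ventral SCN read 2.92 and 2.80 under sham and 3.64 and 3.55 after light in batch A, and 4.27 and 4.00 under sham and 6.59 and 5.42 after light in batch B. Shisa6 in the central SCN read 5.03 and 3.78 under sham and 5.16 and 4.34 after light in batch A, and 6.57 and 7.21 under sham and 7.93 and 7.98 after light in batch B. Shisa6 in the dorsal SCN read 2.63 and 3.07 under sham and 3.44 and 3.21 after light in batch A, and 5.05 and 5.17 under sham and 5.73 and 8.21 after light in batch B. Central arrays were above every ventral and dorsal array in batch A. In batch B ventral light replicate 3, at 6.59, was above the lowest central array, and dorsal light replicate 4, at 8.21, was above all central arrays. Shisa6 was 3.61-fold lower in the ventral than in the central SCN (-1.85 ± 0.323 (SE), adjusted p = 0.000693), with -1.35 within batch A and -2.35 within batch B. It was 2.71-fold higher in the central than in the dorsal SCN (1.44 ± 0.323 (SE), adjusted p = 0.00633), with 1.49 within batch A and 1.38 within batch B. A second probe set, over 4 on 11 arrays, gave -1.01 and 1.13 for the same differences.

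Cacng3 encodes a transmembrane AMPA receptor regulatory protein. Cacng3 in the ventral SCN read 2.88 and 3.26 under sham and 2.77 and 2.91 after light in batch A, and 5.94 and 5.42 under sham and 5.47 and 4.87 after light in batch B. Cacng3 in the central SCN read 3.89 and 3.29 under sham and 3.49 and 3.14 after light in batch A, and 5.88 and 6.12 under sham and 6.73 and 6.66 after light in batch B. Cacng3 in the dorsal SCN read 2.68 and 2.89 under sham and 3.09 and 2.98 after light in batch A, and 4.94 and 4.51 under sham and 5.07 and 3.72 after light in batch B. It exceeded 4 on 11 arrays, all in batch B, and the central arrays lay above every dorsal array within each batch. The central to dorsal difference was 1.17 ± 0.225 (SE), 2.24-fold, with an adjusted p of 0.00173 and 0.54 within batch A and 1.79 within batch B. The ventral SCN lay between, at -0.71 ± 0.225 (SE) from the central (adjusted p = 0.0782) and 0.46 ± 0.225 (SE) from the dorsal (adjusted p = 0.349).

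Cnih3, an AMPA receptor cornichon, had its E-box-bearing promoter window shown above. Cnih3 in the ventral SCN read 4.24 and 4.60 under sham and 4.09 and 4.07 after light in batch A, and 7.51 and 7.10 under sham and 7.58 and 7.42 after light in batch B. Cnih3 in the central SCN read 4.84 and 4.71 under sham and 3.98 and 3.66 after light in batch A, and 7.59 and 7.80 under sham and 8.05 and 7.75 after light in batch B. Cnih3 in the dorsal SCN read 3.74 and 3.83 under sham and 3.95 and 3.44 after light in batch A, and 7.07 and 6.995 under sham and 6.71 and 4.73 after light in batch B. Every ventral array lay above every dorsal array within its batch, and the central arrays were apart from the dorsal ones in batch B and overlapped them in batch A. Dorsal light replicate 4, at 4.73, was the lowest of batch B, and the central to dorsal difference without it was 0.72 (adjusted p = 0.00264). Cnih3 was 1.99-fold higher in the central than in the dorsal SCN (0.99 ± 0.242 (SE), adjusted p = 0.012), with 0.56 within batch A and 1.42 within batch B. The ventral to dorsal difference was 0.77 ± 0.242 (SE), with an adjusted p of 0.0781.

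Neto1 and Neto2, paralogous partners of kainate receptors, had opposite regional profiles. Neto1 in the ventral SCN read 6.06 and 6.53 under sham and 6.33 and 5.95 after light in batch A, and 8.44 and 8.36 under sham and 8.38 and 7.91 after light in batch B. Neto1 in the central SCN read 6.65 and 6.44 under sham and 6.25 and 5.65 after light in batch A, and 8.55 and 8.55 under sham and 8.59 and 8.29 after light in batch B. Neto1 in the dorsal SCN read 5.25 and 4.74 under sham and 5.90 and 5.81 after light in batch A, and 7.42 and 7.34 under sham and 7.73 and 8.71 after light in batch B. The dorsal sham arrays were the lowest of their batches, the dorsal light arrays were higher, and dorsal light replicate 4 exceeded every other array of batch B. Neto1 was higher than in the dorsal SCN by 0.63 ± 0.144 (SE) in the ventral (adjusted p = 0.00934) and by 0.76 ± 0.144 (SE) in the central SCN (adjusted p = 0.00146), 1.55-fold and 1.69-fold. Within batches the values were 0.80 within batch A and 0.47 within batch B, and 0.82 within batch A and 0.70 within batch B. Among sham arrays of the same fit the differences were 1.16 ± 0.204 (adjusted p = 0.00239) and 1.36 ± 0.204 (adjusted p = 0.000334). Among its light arrays they were 0.11 ± 0.204 (adjusted p = 0.813) and 0.16 ± 0.204 (adjusted p = 0.723). Its 2 other probe sets, over 4 on 22 and 21 arrays, gave 0.83 and 0.43 for ventral minus dorsal, and 0.85 and 0.66 for central minus dorsal.

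Neto2 in the ventral SCN read 3.40 and 3.91 under sham and 4.24 and 4.33 after light in batch A, and 5.56 and 5.86 under sham and 6.82 and 6.89 after light in batch B. Neto2 in the central SCN read 4.06 and 3.86 under sham and 4.28 and 4.04 after light in batch A, and 6.599 and 6.73 under sham and 6.72 and 6.92 after light in batch B. Neto2 in the dorsal SCN read 4.22 and 4.13 under sham and 4.73 and 5.22 after light in batch A, and 7.27 and 7.20 under sham and 7.59 and 8.0004 after light in batch B. Neto2 was highest in the dorsal SCN, whose arrays were above all others in batch B and overlapped them in batch A. It was 1.89-fold lower in the ventral than in the dorsal SCN (-0.92 ± 0.129 (SE), adjusted p = 6.66e-05), with -0.60 within batch A and -1.23 within batch B. It was 1.56-fold lower in the central than in the dorsal SCN (-0.64 ± 0.129 (SE), adjusted p = 0.00239), with -0.51 within batch A and -0.77 within batch B. Its 2 other probe sets were over 4 on 0 arrays. With the mean of the 3, the central to dorsal difference was -0.25 (adjusted p = 0.0757).

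Regional differences of Cacng2, Cacng8, Cnih2 and Dlg4 did not pass. Cacng8 spanned 7.16 to 7.73 in batch A, and 9.72 to 10.3 in batch B, with a ventral to dorsal interval of -0.37 to 0.04. Cacng2, the stargazin gene, ran from 4.47 to 6.09 and from 6.73 to 7.78, and Cnih2 from 7.66 to 8.46 and from 8.07 to 8.77. Dlg4 had wide intervals, -0.42 to 1.86 for ventral minus dorsal, with dorsal light replicate 4 at 4.50 where the other batch B arrays lay between 9.79 and 10.7.

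**Figure D2:**
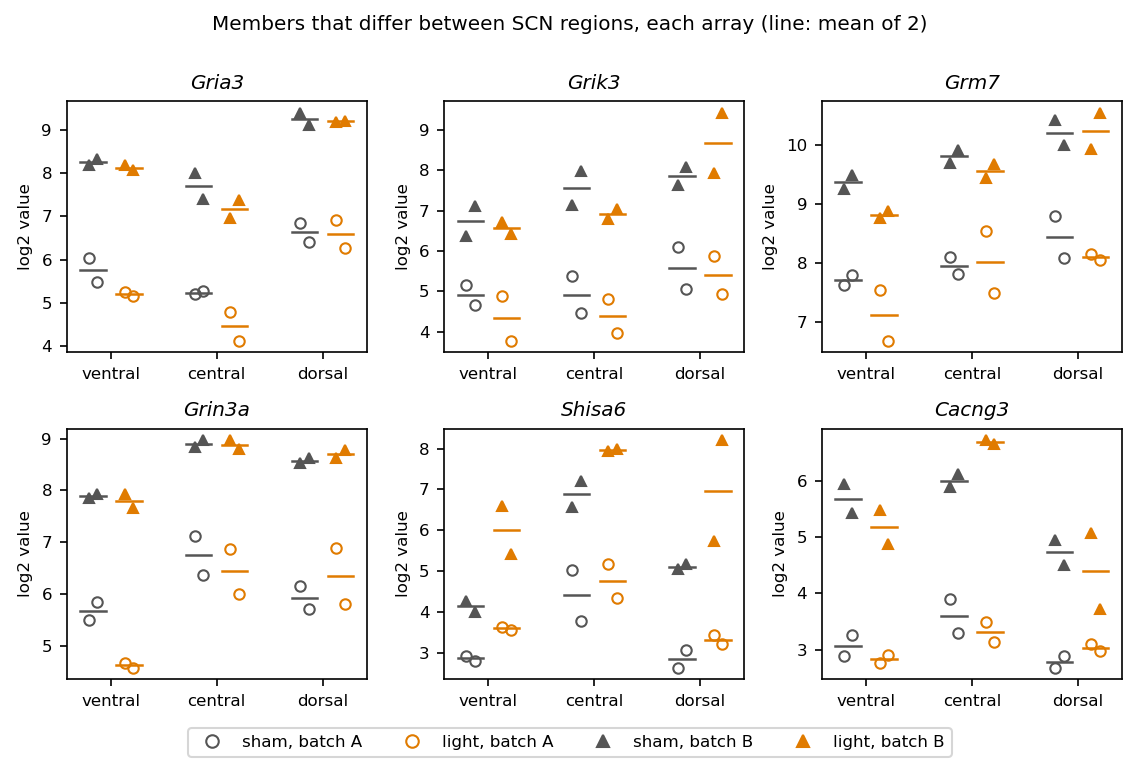
Log2 values of Gria3, Grik3, Grm7, Grin3a, Shisa6 and Cacng3 on every array by region, with sham in grey, light in orange, batch A as open circles, batch B as filled triangles and a line at the mean of the 2 arrays of a group and batch. Gria3 is highest in the dorsal SCN in both batches, Grin3a is lower in the ventral than in the central SCN, and Cacng3 is higher in the central than in the dorsal SCN; the 2 batches lie on different scales.

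Within batches, the arrays of 2 regions did not overlap, in the same direction in both batches, for 3 members between the ventral and the dorsal SCN (Gria3, Grm7 and Cnih3), 1 between the ventral and the central SCN (Grin3a) and 2 between the central and the dorsal SCN (Gria3 and Cacng3). Over all tested genes the same held for 2.13% (1.24% higher and 0.897% lower), 2.63% (2.26% and 0.371%) and 2.22% (0.637% and 1.58%).

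After light, Neto2 in the ventral SCN was the only member called, and it was higher. It was called among 97 genes, 0.719% of those tested (0.585% higher and 0.133% lower). In the central SCN 0 members were called in limma, beside 0.385% of all genes (0.296% higher and 0.0889% lower), and in the dorsal SCN 0, beside 0.178% (0.148% and 0.0296%). At an unadjusted p under 0.05 the counts were 6, 7 and 7 members, beside 6.56%, 8.06% and 10.1% of all genes. Most members had lower values after light: the difference was below 0 for 24 of 29 in the ventral, 21 in the central and 19 in the dorsal SCN, beside 56.8%, 63.9% and 53.3% of all tested genes. The member medians were -0.25, -0.16 and -0.09, and those of all genes -0.03, -0.08 and -0.03. Over all 31 members with a probe set the medians were -0.23, -0.15 and -0.09. General neuron markers had medians of -0.09, -0.19 and -0.20 after light in the ventral, central and dorsal SCN, with 0 of 7 called in each. Endothelial and mural markers had medians of -0.22, -0.40 and -0.31, with 1, 1 and 0 of 5 above 0. Astrocyte markers had medians of -0.03, -0.34 and -0.01, and markers of SCN neurons -0.0038, 0.11 and 0.46, the last with 9 of 10 above 0. Of 7 astrocyte markers 1, 0 and 1 were called higher, and of 10 SCN neuron markers 1, 1 and 0. In both lists 0 were called lower. The part of these markers in the members' values was not tested.

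**Figure D3:**
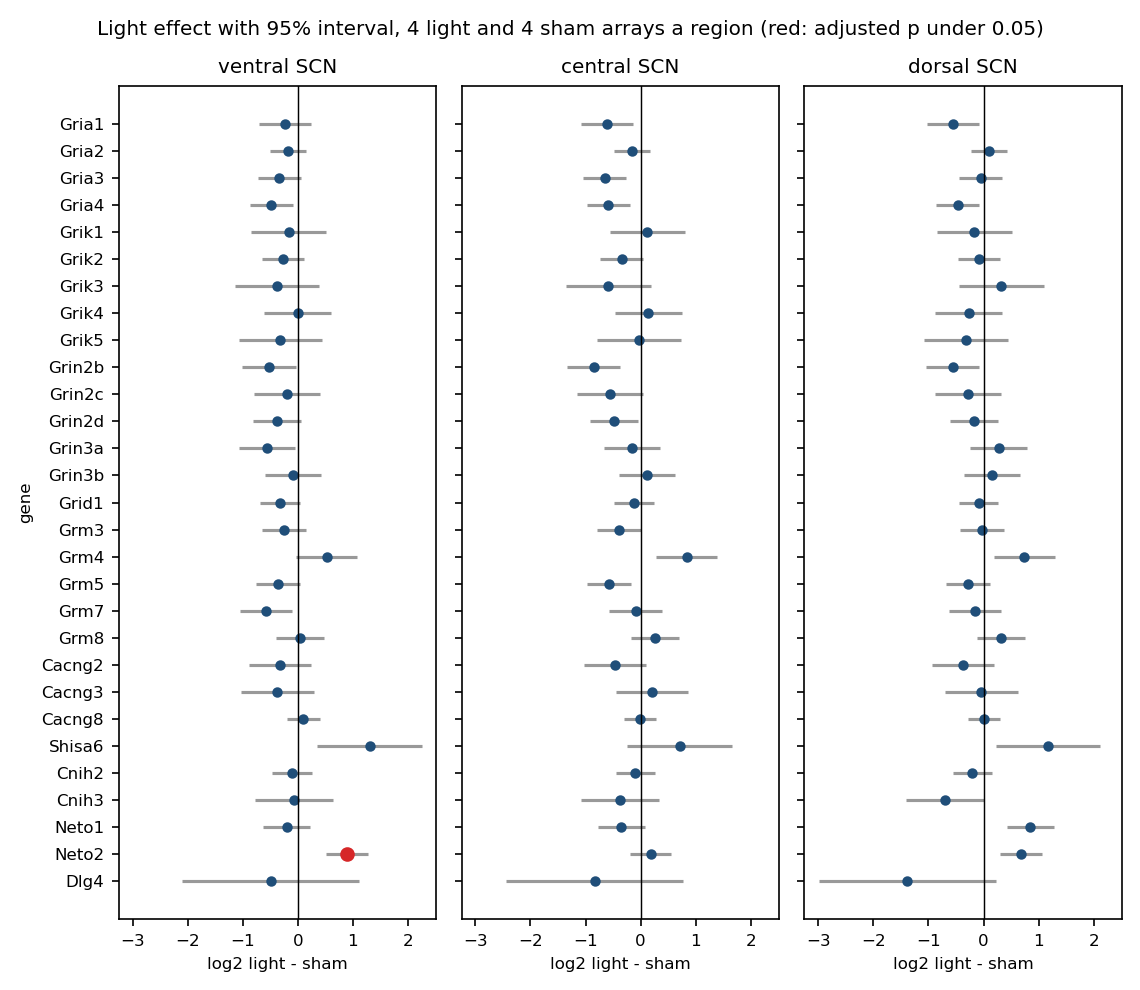
Points give the log2 light minus sham difference of each tested member in the ventral, central and dorsal SCN (4 light and 4 sham arrays each), and bars its 95% interval from limma. Neto2 in the ventral SCN, at 0.89, is the only point with an adjusted p under 0.05; Dlg4 has the widest intervals.

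Neto2 had its values in every array given above. In the ventral SCN both light arrays of each batch were above both sham arrays, and the same held in the dorsal SCN, while they overlapped in the central SCN in batch A and batch B. The ventral difference was 0.89 ± 0.182 (SE), 1.85-fold, with an adjusted p of 0.0173 and 0.63 within batch A and 1.15 within batch B. The dorsal difference was 0.68 ± 0.182 (SE) (adjusted p = 0.195) and the central 0.18 ± 0.182 (SE) (adjusted p = 0.92). A test of the ventral against the central light effect gave 0.71 ± 0.258 with an adjusted p of 0.99997 in limma. The ventral call was lost without ventral light 2 (0.0825), ventral sham 1 (0.0534), ventral light 4 (0.0585), ventral sham 3 (0.0958) or ventral sham 4 (0.0804). It was also lost with the mean of its 3 probe sets (0.29, adjusted p = 0.54). Its other probe sets, over 4 on 0 arrays, gave -0.10 and 0.09.

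Neto1 had its largest light difference in the dorsal SCN, 0.85 ± 0.204 (SE) (adjusted p = 0.113), with 0.86 within batch A and 0.84 within batch B, and both light arrays of each batch were above both sham arrays. Without dorsal light replicate 4 it was 0.65. The 2 other Neto1 probe sets, over 4 on 22 and 21 arrays, disagreed on it, with 1.27 and 0.00061. Its differences in the ventral and central SCN were -0.20 ± 0.204 (SE) and -0.35 ± 0.204 (SE). The interaction of light and region had the smallest p of the members for Neto1 (limma's moderated F = 10.3, adjusted p = 0.99968). At an adjusted p under 0.05, 0 members and 1 gene, 0.00741% of those tested, were called for that interaction in limma, and 2 members had an unadjusted p under 0.05, Neto1 and Neto2, beside 2.05% of all genes. With quantile normalization within batch the dorsal Neto1 difference was 0.88 with an adjusted p of 0.0475.

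Shisa6 had the largest upward light differences of the members in the ventral and the dorsal SCN, and none of its 3 differences was called: 1.30 ± 0.457 (SE) in the ventral (adjusted p = 0.399), 0.71 ± 0.457 (SE) in the central (adjusted p = 0.794) and 1.17 ± 0.457 (SE) in the dorsal SCN (adjusted p = 0.446). Light and sham arrays were apart in both batches in the ventral and dorsal SCN. Without dorsal light replicate 4 the ventral difference passed at the same size (adjusted p = 0.045), and the dorsal one was 0.54. The Shisa6 probe set used exceeded 4 on 3 of 12 arrays of batch A. A second Shisa6 probe set, over 4 on 11 arrays, gave smaller differences of 0.43, 0.65 and 0.28 in the ventral, central and dorsal SCN. The metabotropic receptor Grm4, coupled to inhibitory G proteins, had differences of 0.52 ± 0.268 (SE), 0.83 ± 0.268 (SE) and 0.74 ± 0.268 (SE) in the ventral, central and dorsal SCN, with adjusted p of 0.82, 0.308 and 0.424. Grm4 in the central SCN read 5.93 and 6.88 under sham and 7.15 and 7.85 after light in batch A, and 7.14 and 7.73 under sham and 7.88 and 8.13 after light in batch B. Both central light arrays were above both sham arrays in each batch, and in the other regions they were apart in batch B and overlapped in batch A.

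With the probe set used, Grin2b had the largest downward difference among the receptor subunits, in the central SCN. Grin2b in the central SCN read 7.78 and 8.13 under sham and 6.57 and 6.86 after light in batch A, and 11.11 and 10.69 under sham and 10.32 and 10.53 after light in batch B. Grin2b in the ventral SCN read 7.61 and 7.86 under sham and 6.997 and 7.38 after light in batch A, and 10.77 and 10.68 under sham and 10.16 and 10.28 after light in batch B. The light arrays lay below the sham arrays in both batches in these 2 regions. The differences were -0.86 ± 0.234 (SE) in the central (adjusted p = 0.157), -0.52 ± 0.234 (SE) in the ventral (adjusted p = 0.659) and -0.56 ± 0.234 (SE) in the dorsal SCN (adjusted p = 0.454). Without dorsal light replicate 4 the central difference passed at the same size (adjusted p = 0.00846). Within batches the central difference was -1.24 within batch A and -0.47 within batch B. Grin2b in the dorsal SCN read 7.82 and 7.87 under sham and 7.83 and 7.56 after light in batch A, and 10.99 and 10.94 under sham and 10.53 and 9.45 after light in batch B. The dorsal arrays overlapped in batch A, and the lowest of batch B was dorsal light replicate 4. The dorsal difference was -0.15 within batch A and -0.97 within batch B. A second Grin2b probe set, over 4 on 24 arrays, gave -0.50 in the ventral, -0.38 in the central and -0.60 in the dorsal SCN. Its central difference was thus the smallest of these.

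With the probe set used for each gene, all 4 AMPA subunits had negative light differences in the ventral and central SCN, none called. Gria4 in the ventral SCN read 8.54 and 8.28 under sham and 8.05 and 7.37 after light in batch A, and 10.04 and 9.86 under sham and 9.63 and 9.76 after light in batch B. Gria4 in the central SCN read 8.35 and 8.41 under sham and 8.02 and 7.27 after light in batch A, and 9.99 and 9.88 under sham and 9.35 and 9.63 after light in batch B. Gria4 in the dorsal SCN read 8.40 and 8.14 under sham and 8.10 and 7.65 after light in batch A, and 9.90 and 9.67 under sham and 9.38 and 9.11 after light in batch B. Light arrays of Gria4 lay below sham arrays in both batches in all 3 regions with this probe set. A second Gria4 probe set, over 4 on 12 arrays, gave -0.27, -0.25 and -0.46 in the ventral, central and dorsal SCN. Another, over 4 on 12 arrays, had the opposite sign, with 0.11, 0.24 and 0.64. With the probe set used, the Gria4 differences were -0.48 ± 0.186 (SE), -0.59 ± 0.186 (SE) and -0.47 ± 0.186 (SE) in the ventral, central and dorsal SCN, with adjusted p of 0.528, 0.292 and 0.449. Gria1 differed by -0.23, -0.62 and -0.55, with light arrays below sham arrays in both batches in the central and dorsal SCN. The central Gria1 value was -0.97 within batch A and -0.26 within batch B. In batch A central light replicate 2, which stands apart, read 6.70 and the other light array 7.43. That replicate was also the lowest central array of batch A for Gria2, Gria3 and Gria4. The central Gria3 and Gria4 values were -0.78 and -0.73 within batch A, and -0.53 and -0.44 within batch B. The dorsal Gria1 value was -0.28 within batch A and -0.83 within batch B, where dorsal light replicate 4 read 8.28 and the other light array 9.37. Gria3 differed by -0.34, -0.66 (adjusted p = 0.199) and -0.05. A second Gria3 probe set, over 4 on 10 arrays, gave 0.14, -0.44 and -0.19. The corresponding Gria2 differences were -0.18, -0.15 and 0.10, with intervals within -0.51 and 0.42. A second Gria2 probe set, over 4 on 24 arrays, gave -0.39, -0.36 and -0.39. Another, over 4 on 24 arrays, gave -0.23, -0.21 and -0.04, so the dorsal sign differed between probe sets.

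The remaining members had smaller or less even light differences, none called. Grm5 differed by -0.36, -0.58 and -0.28, Grm7 by -0.58, -0.09 and -0.15, and Grin3a by -0.57, -0.16 and 0.27 in the ventral, central and dorsal SCN, and the smallest adjusted p of these was 0.334. The central Grm5 value was -0.93 within batch A and -0.23 within batch B. A second Grm7 probe set, over 4 on 23 arrays, had the opposite sign, with 0.25, 0.03 and 0.41. The kainate subunits lay between -0.58 and 0.32, both values of Grik3. Cacng2, Cacng3, Cacng8 and Cnih2 lay between -0.47 and 0.21. Grin2c had its largest difference in the central SCN (-0.56), as had Grin2d (-0.48) and Grm3 (-0.39), while Grin3b and Grm8 lay between -0.09 and 0.31. The central value of Grin2c was -1.06 within batch A and -0.06 within batch B. That of Grin2d was -0.46 and -0.49, and that of Grm3 -0.15 and -0.63. Grid1 differed by -0.32, -0.12 and -0.09, and Cnih3 by -0.70 in the dorsal SCN (adjusted p = 0.496). That Cnih3 value was -0.09 within batch A and -1.31 within batch B, where dorsal light replicate 4 read 4.73 and the other light array 6.71. The dorsal Grik3 value likewise was -0.17 within batch A and 0.81 within batch B, with dorsal light replicate 4 at 9.42, and changed sign between batches. The dorsal Dlg4 difference of -1.38 ± 0.775 (SE) was 0.09 within batch A and -2.85 within batch B, where 1 of 2 light arrays is dorsal light replicate 4. The central Dlg4 difference was -0.84, with -1.45 within batch A and -0.23 within batch B. The ventral one was -0.49, with -0.74 and -0.25. A second Dlg4 probe set, over 4 on 24 arrays, gave 0.09, 0.00064 and -0.91 in the ventral, central and dorsal SCN. Another, over 4 on 7 arrays, gave 0.26, 0.17 and -0.25.

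**Figure D4:**
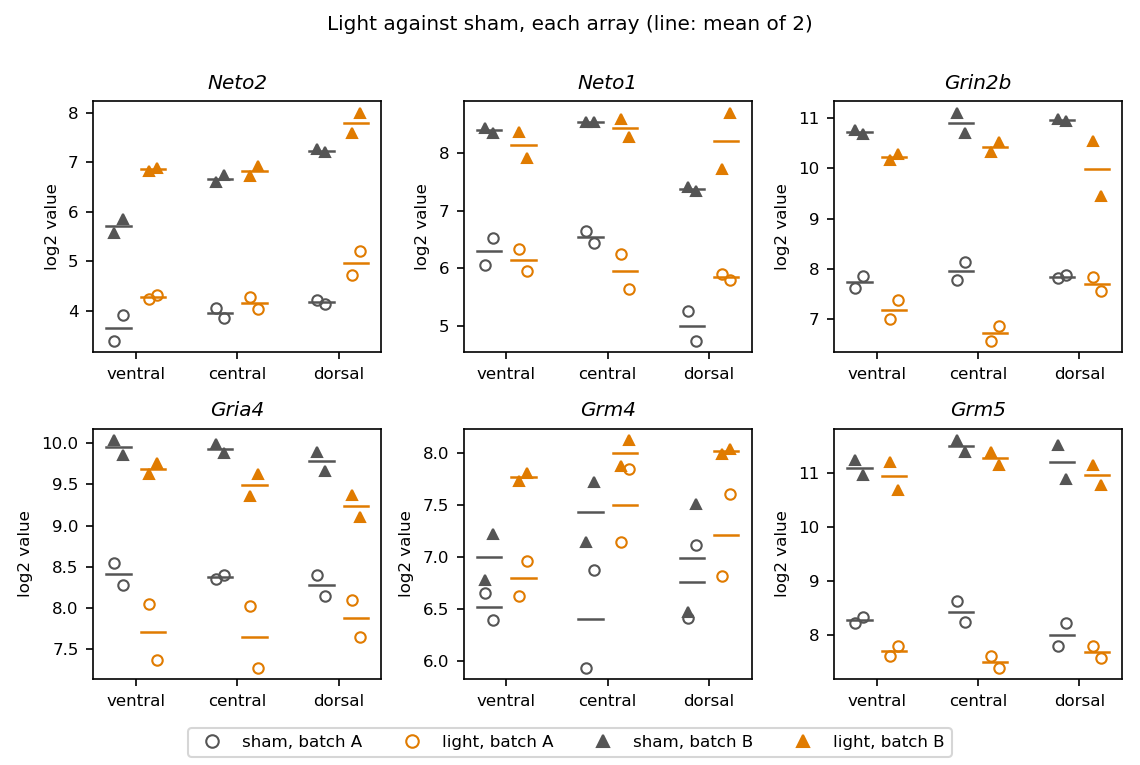
Log2 values of Neto2, Neto1, Grin2b, Gria4, Grm4 and Grm5 on every array by region, with sham in grey, light in orange, batch A as open circles, batch B as filled triangles and a line at the mean of the 2 arrays of a group and batch. With the probe set used for each gene, light arrays of Neto2 are above sham arrays in the ventral and dorsal SCN, those of Gria4 are below sham arrays in all 3 regions, and Neto1 separates in both batches in the dorsal SCN only.

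Light and sham arrays did not overlap, in the same direction in both batches, for 7 members in the ventral SCN (Shisa6 and Neto2 higher; Gria2, Gria4, Grik2, Grin2b and Grm7 lower), 6 in the central SCN (Grm4 higher; Gria1, Gria3, Gria4, Grin2b and Grin2d lower) and 5 in the dorsal SCN (Shisa6, Neto1 and Neto2 higher; Gria1 and Gria4 lower). Over all tested genes the same held for 13.9% in the ventral (5.96% higher and 7.91% lower), 9.34% in the central (2.99% and 6.36%) and 5.94% in the dorsal SCN (3.31% and 2.63%). Averaged over the 3 regions, on 4 light and 4 sham composites, 0 members were called in limma, beside 0.408% of all genes (0.356% higher and 0.0519% lower), and 10 had an unadjusted p under 0.05, beside 9.52%. The smallest adjusted p was that of Grin2b (-0.65 ± 0.132 (SE), adjusted p = 0.0876), followed by Shisa6 (1.06 ± 0.228 (SE), 0.109) and Neto2 (0.58 ± 0.126 (SE), 0.109). Fitted instead as the mean of the 3 light effects on all 24 arrays, 7 members passed, beside 4.07% of all genes (1.97% higher and 2.1% lower): Neto2, Shisa6 and Grm4 higher and Grin2b, Gria4, Gria1 and Grm5 lower. That fit counts regions that may share animals as separate samples.

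Other genes of the glutamate pathway, 57 genes for transporters and glutamate metabolism, scaffolds, further receptors and partners, and downstream signalling, had a probe set in 49 cases and were tested in 46. After light, 1 of the 46 was called: Cbln2, a cerebellin ligand of delta receptors, was lower in the ventral SCN (-0.84 ± 0.182, adjusted p = 0.0256). In the dorsal SCN it differed by -0.74 ± 0.182 (adjusted p = 0.133), and 0 were called there and in the central SCN, where Grip1 and Cacng5 had the smallest p (-0.67 and -0.62). Between the ventral and the dorsal SCN 4 were higher and 3 lower, led by Cbln2 (1.53), the scaffold gene Dlgap1 (0.92), neuronal nitric oxide synthase Nos1 (-1.09) and the synaptic adhesion gene Lrrtm2 (0.67). Between the ventral and the central SCN 6 were higher and 1 lower, led by Cbln4 (-1.81), Cacng5 (0.95), Dlgap1 (1.11) and glutamate dehydrogenase Glud1 (0.49). Between the central and the dorsal SCN 3 were higher and 9 lower, led by Cbln2 (1.52), Cacng5 (-1.33), the AMPA receptor partner Gsg1l (1.61) and the AMPA receptor partner Shisa9 (-1.86). All values are log2 differences called in limma except the dorsal value of Cbln2 and the central light values of Grip1 and Cacng5.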

How the data were processed

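Gene expression was measured on 24 Affymetrix mouse arrays, 1 per sample. The deposited table holds log2 values for 45101 probe sets, as processed by the authors. Per the submitters' processing notes, GCRMA 2.32.0, R 3.0.2 and MAS5 were used, with no role stated for each. For normalization across the 2 batches no source used here gives a step.

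Of the probe sets, 34945 had 1 gene symbol in the platform annotation, 932 had several, 9160 had none and 64 were controls. Entrez identifiers of 34754 matched the GRCm38.p6 gene table, which changed 0 symbols. Probe set choice and the filter on low values are given with the results. The tests used limma 3.58.1 under R 4.3.3 (two-sided moderated tests, Benjamini-Hochberg over 13494 genes, 4699 left out): 1 fit of 6 group means and batch on 24 arrays (17 residual and 4.7 prior degrees of freedom), and a fit of the averaged light effect on 8 composites, made by averaging the 3 regions within a treatment and replicate number (5 and 5.7). Errors are standard errors and intervals cover 95%. The script was tested on simulated data. Precision is limited by the array number.

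The members, gene lists and tests were chosen with earlier results of these data known. All members are named, with every array's value for members that passed a comparison and for Grid1, and of other pathway genes up to 4 per comparison by smallest p among those that passed, or 2 where none did. Array values of further members were added after their values were seen.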

Additional observations from a re-analysis of the deposited data

Results flagged for a closer look

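Sets of 4 arrays were searched, after the batch means were removed, for a single array far from the other 3 (the gap to the nearest divided by the whole range, against Dixon's critical value). Of 174 sets of 29 members, 8 held such an array. Chance alone gives about 1 in 20. Of the 8, 4 fell on dorsal light replicate 4, which stands apart in its correlation with other arrays: Dlg4 was low there at 4.50 (ratio 0.89), Grik2 low at 6.33 (0.845), Shisa6 high at 8.21 (0.899) and Grm7 high at 10.6 (0.857). In the dorsal sham group, Grin2c was low in replicate 4 at 6.80 (0.859) and Grm3 high in replicate 3 at 7.16 (0.894). Grin2c was high in dorsal light replicate 1 at 5.86 (0.868), and Grin3b high in ventral light replicate 1 at 4.66 (0.9).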

How the results depend on the processing

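Over the settings tried, 1362 values were recomputed, for members called in a comparison or with the smallest p for light, and 0 changed sign. This does not cover the other members. Of all 29, 22, 19 and 19 had the same sign in both batches for ventral, central and dorsal light. Of 886 values of called members, 737 stayed called and 149 did not. The cause of each loss was not tested, except that fits within a batch or without an array use fewer arrays. Without the batch term the members called were 0 in the ventral light comparison and 0 in each comparison of regions. Quantile normalization gave 1 in the dorsal light comparison. The mean of all probe sets gave 0 for ventral light and 2 for ventral minus central. Within batch A the counts were 0 for ventral light, 1 for ventral minus dorsal, 2 for ventral minus central and 2 for central minus dorsal, and within batch B 0, 4, 1 and 3. Array weights gave 3 for ventral light, 1 for central light, 4 for the averaged light effect and 8 for ventral minus central. The mean of the 3 light effects on 24 arrays gave 7. In the main fit, sham groups gave 3, 2 and 2 in the comparisons of regions (ventral minus dorsal, ventral minus central, central minus dorsal). Light groups gave 5, 2 and 5 there. A separate fit of sham arrays alone gave 5, 2 and 6 in the same order. That fit uses fewer arrays. Calls lost in it were Grin3a (-0.48), Grik3 (-0.89) and Grin2d (-0.47) for ventral minus dorsal. For ventral minus central they were Gria3 (0.53), Grin2d (-0.60) and Grm7 (-0.34). For central minus dorsal they were Neto2 (-0.39), Grin2c (-0.83), Grm8 (0.56) and Grik3 (-0.48). Leaving out both arrays that stand apart, a setting chosen after seeing the data, gave 2 for ventral light, 1 for central light and 8 for ventral minus central.

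Leaving out 1 array at a time gave 0 to 2 members for ventral light, 0 to 1 for central light, 0 to 0 for dorsal light, 0 to 1 for the averaged effect, 6 to 9 for ventral minus dorsal, 3 to 7 for ventral minus central, 7 to 10 for central minus dorsal and 0 to 0 for the interaction. The counts of 2 and 1 for ventral and central light came without dorsal light replicate 4, and the 0 for ventral light without ventral light 2 or 4 or ventral sham 1, 3 or 4. For ventral minus central, 3 came without ventral light 2 or 4, central light 4, ventral sham 3 or 4, or central sham 3. The light difference of Gria4 in the ventral SCN ran from -0.57 to -0.30, of Grm4 in the dorsal SCN from 0.48 to 0.94 and of Shisa6 in the dorsal SCN from 0.54 to 1.41.

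Replicate numbers recur in all groups. Deviations of same-numbered arrays correlated at 0.096 to 0.623 over 30 pairs (median 0.315), and 29 exceeded 0.1, so same-numbered arrays mostly deviated together. The labels do not say what a number shares, and as 1 pair fell short of 0.1 the numbers were not taken as a pairing. That pair was central light with central sham in batch B (0.096), a light and a sham group. It therefore cannot show whether regions of the same treatment share animals. Pairs of regions within a treatment correlated at 0.185 to 0.623. With the number as a replicate block, 2 members passed for the averaged light effect (Grin2b, adjusted p = 0.0392, and Shisa6, 0.0476), and the other counts were 1, 0 and 0 for light, 8, 5 and 10 for regions and 0 for the interaction. A replicate block within treatment also gave 8, 5 and 10 for regions, but lost Grik2 between the ventral and the dorsal SCN (0.45, adjusted p = 0.0557).

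Counts over all genes moved by more than 1.5 times under some settings: without a batch term 0 genes for light and 4, 9 and 7 for regions, with array weights 576, 204, 353 and 476 for light (ventral, central, dorsal, averaged) and 1374, 1390 and 1762 for regions, and for ventral light 47 to 207 on leaving out 1 array. Scaling mattered for the split of calls: centring on medians within batch moved the median of all genes from 0.05 to -0.06 for ventral minus central and from -0.05 to 0.07 for central minus dorsal, and the share of calls that were higher from 83.8% to 69.2%, from 27.6% to 51.5% and, for central light, from 76.9% to 63.1%. With quantile normalization it went from 83.3% to 72.1% for dorsal light. The members' calls kept their signs.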
